A study of Saccharomyces cerevisiae BY4741 with 25 samples.

Results

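The single-base calls without a coding effect in the deposited annotation were described across 9 libraries of budding yeast genomic DNA. A member is a call of 1 reference and 1 alternate base, covered by at least 10 reads, whose deposited effect names no change within a reading frame (silent changes count as coding) and no splice site. The rule left 483 unique members out of 1810 unique calls of any kind. Another 764 unique single-base calls with at least 10 reads were coding. The 9 lists held 80 members in the parental library and 102, 102, 128, 124, 119, 146, 109 and 99 in RRC1 to RRC8.

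The study used whole-genome sequencing of pooled spore clones to look for mutations that release the repression of SIR2, the gene of a histone deacetylase that keeps the ribosomal RNA gene repeats stable. The parental library mixed strains YTT66 and YTT67, of mating types MATa and MAT alpha. Each of RRC1 to RRC8 was 1 library of mutant clones from spores of backcrossed strains, also of mixed mating type, grown to stationary phase in rich medium. Another 16 samples, from chromatin immunoprecipitation of Uaf30, were not analysed here. RRC1 came from strain YTT67_alpha25 and RRC4 from YTT67_alpha5, and RRC2, RRC3, RRC5, RRC6, RRC7 and RRC8 from YTT66_a17, YTT66_a19, YTT66_a40, YTT66_a296A, YTT66_a33 and YTT66_a44. Titles name rrn9 for RRC1, rrn10 for RRC2, rrn5 for RRC3 and uaf30 for RRC5. RRC4 is described in the labels with the words used for the parental library, but its title and strain are those of a mutant, and it is taken as such here.

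In such a pooled cross, an allele that lies beside the selected mutation is carried by nearly all clones, and an allele on another chromosome is inherited by about every other clone. Noncoding changes serve as markers of such inheritance along the chromosomes. In the compact yeast genome the stretches between genes hold promoters and terminators, and genes for transfer RNA and other untranslated RNA also count as noncoding in a call list of this kind.

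By the deposited annotation, 333 members were intergenic, 61 lay upstream of a gene, 72 downstream, 4 on both kinds of flank, 9 in an exon of a gene without a coding effect and 4 in an intron. The annotated flank reached at most 100 bases, and calls farther from any gene are listed as intergenic. Gene names and neighbours are those of the RefSeq table of assembly R64, in which all 158 annotated distances that could be compared were equal to the distance from the gene's end. The build of the files is not given in the sources used here, and positions are the files' own. The exon and intron calls fell in 6 transfer RNA genes, 3 other genes (RUF23, YNL054W-B and YOL153C) and the introns of DBP2, RPL42A, RPS19B and SAR1.

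Median depth over members was 28 reads in RRC6, 41.5 in RRC3 and 63 to 72 in the other 7 libraries. Another 117 noncoding single-base calls, counted over the 9 lists, had under 10 reads. At the edge of the rule, 28 calls with 8 or 9 reads had a median alternate share of 37% and 36 calls with 10 or 11 reads had a median of 30%. Each mutant is 1 library, so reads or calls are compared within a library and the 8 pools serve as the units of a test. Intervals are exact Clopper-Pearson 95% intervals and cover counting error only.

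Members fell into 3 kinds by the lists that held them. The parental list held 81 at any depth, of which 48 were members in all 9 lists and 8 were in the parental list alone. Another 32 were absent from the parental list but present in at least 2 mutant lists. The remaining 370 were in exactly 1 mutant list.

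The kinds differed in base change. Of the parental calls, 24 of 81 were changes of a G:C pair to an A:T pair (29.6%, 95% interval 19.99 to 40.8%). The calls in at least 2 mutant lists had 10 of 32 (31.3%, 16.1 to 50.01%). The calls in 1 mutant list had 216 of 370 (58.4%, 53.2 to 63.5%).

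A call is pool-specific below when its position and alleles are absent from the parental list, and over the 8 mutant lists there were 440 such noncoding calls. The G:C to A:T share of pool-specific calls was 57.6% ± 17.5 (SD, n = 8 pools), against 28.6% ± 1.74 for the noncoding calls that the same pools shared with the parental list. The difference was 29.1 percentage points and was positive in 7 of 8 pools (two-sided exact sign-flip permutation test, p = 0.0156, where 8 pools cannot give less than 0.00781). RRC6 was the exception, with 25 G:C to A:T calls among 93. The calls shared with the parental list were largely the same positions in every pool, as 48 members were in all 9 lists. Their small SD is thus no spread over independent sets of calls, and the test sets the pools against a nearly constant share.

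The deposited score separated pool-specific noncoding calls of unlike base change. Among the 132 calls with a score of at least 200, 129 were G:C to A:T (97.7%, 93.5 to 99.5%), 2 were A:T to G:C and 1 was A:T to T:A. Among the 61 calls with a score from 50 to under 200, 75.4% were G:C to A:T (62.7 to 85.5%). Among the 247 calls with a score under 50, 24.3% were (19.1 to 30.1%), while 34% were G:C to T:A and 19.8% were A:T to T:A. Coding calls followed the same order, with 96% of 347, 66% of 147 and 15.5% of 142 in the high, middle and low score class.

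**Figure D1:**
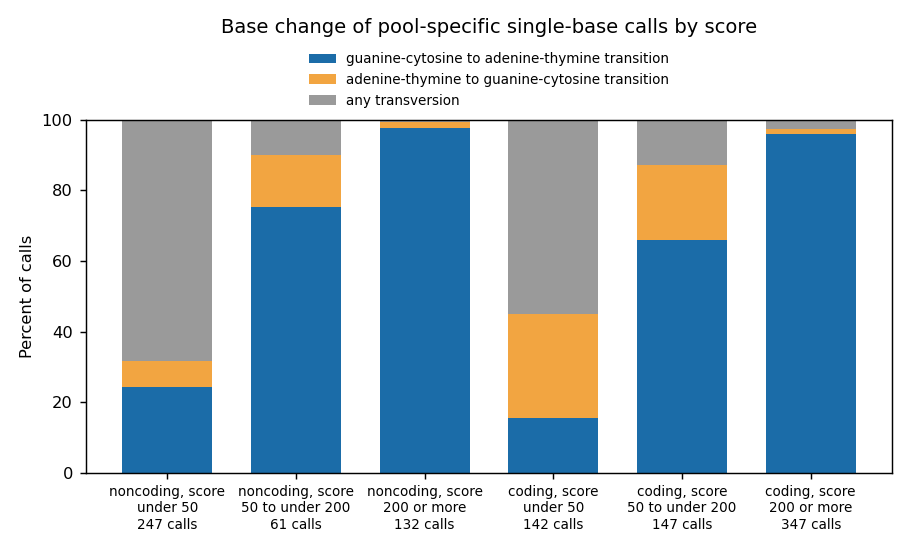
Percent of pool-specific single-base calls (y axis) by kind of base change, for noncoding and coding calls in 3 classes of the deposited score (x axis, number of calls below each bar), summed over the 8 mutant pools. The bar of high-score noncoding calls is 97.7% transitions from guanine-cytosine to adenine-thymine, and the bar of low-score noncoding calls is 24.3%.

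The formula of the score was not given in the sources used here, so its relation to depth and alternate share only describes the classes. The median depth of low-score calls was 21 reads and their median share 25%, with a range of 13 to 50%. High-score calls had a median depth of 70 reads and a median share of 50%, with a range of 31 to 88%. Of the 247 low-score calls, 60 were also listed in another mutant pool, and of the 132 high-score calls 0 were. The plot of share against depth shows the classes.

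**Figure D2:**
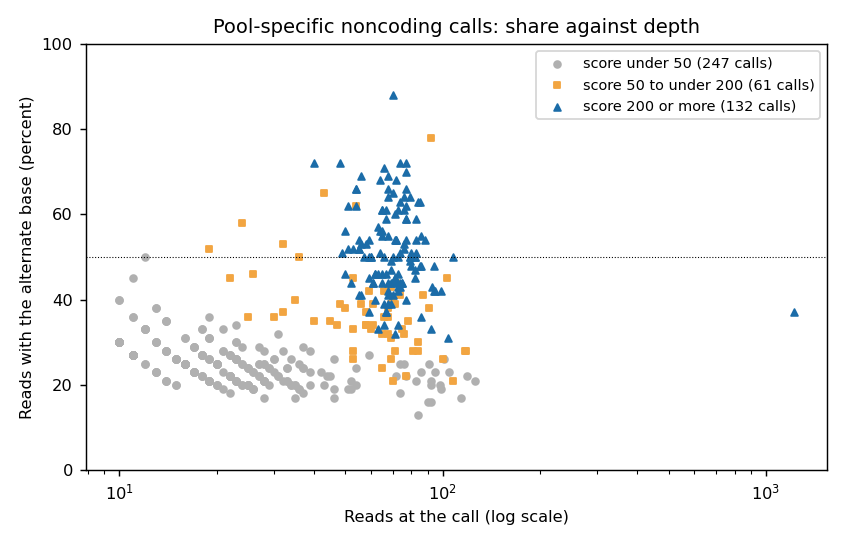
Percent of reads with the alternate base (y axis) against reads at the call (x axis, log scale) for the 440 pool-specific noncoding calls of the 8 mutant pools, with a dotted line at 50%. Low-score calls lie at a median of 21 reads and 25%, and high-score calls at a median of 70 reads and 50%. The point far to the right is a mitochondrial call of RRC2 with 1218 reads.

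Low scores were more frequent among noncoding than coding calls in every pool. The share of pool-specific calls with a score under 50 was 51.0% ± 20.3 for noncoding and 25.7% ± 13.2 for coding calls (SD, n = 8 pools). The difference of 25.3 percentage points was positive in 8 of 8 pools (two-sided exact sign-flip permutation test, p = 0.00781, the smallest possible). RRC6 and RRC3 had the highest noncoding shares, 87.1 and 78.1%, and the other 6 pools had 31.1 to 48.6%. Both also had the lowest median depth over members. That median includes the low-score calls themselves, so it is no separate measure of library depth. Low-score noncoding calls had a median of 19 reads in RRC6, 23 in RRC3 and 15 to 28 in the other 6 pools. The part of depth in this result was not tested.

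Taken over all scores, fewer noncoding than coding pool-specific calls were G:C to A:T. The means were 57.6% ± 17.5 and 67.2% ± 13.0 (SD, n = 8 pools), a difference of -9.59 points with the noncoding share higher in 1 of 8 pools (two-sided exact sign-flip permutation test, p = 0.0234). Within single libraries, Fisher's exact test (two-sided, Benjamini-Hochberg over the pools) passed in RRC3, with 26 of 73 noncoding against 55 of 84 coding calls (adjusted p = 0.00183). In the other 7 pools the adjusted p was 0.411 to 1. The difference turned to 2.31 points in calls with a score of at least 200 (p = 0.156 in the same exact test), where the means were 98.3% and 96.0%.

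The alternate share itself was lower in noncoding than in coding calls. Its mean over pool-specific calls was 35.6% ± 4.54 for noncoding and 47.5% ± 3.20 for coding calls (SD, n = 8 pools), lower by a mean of 11.9 points and in 8 of 8 pools (two-sided exact sign-flip permutation test, p = 0.00781). In calls with a score of at least 200 the noncoding mean was 52.0% and the coding mean 55.5%, a gap of -3.48 points (p = 0.00781 in the same exact test). The plot of the 8 pools shows the 3 measures side by side.

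**Figure D3:**
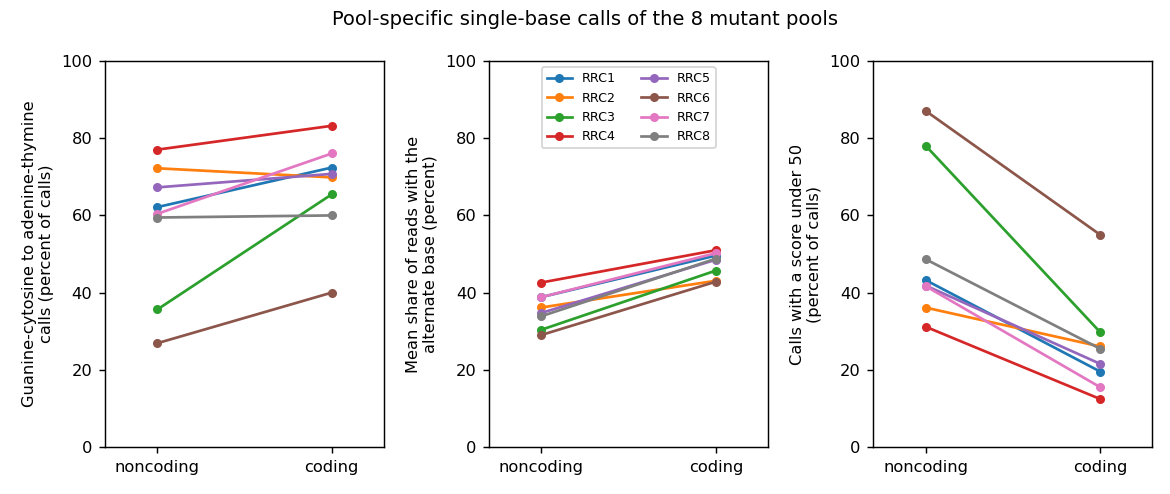
Each line joins the noncoding and the coding value of 1 mutant pool, for pool-specific single-base calls. Left, percent of calls from guanine-cytosine to adenine-thymine, higher in noncoding calls in 1 of 8 pools; middle, mean percent of alternate reads, lower in noncoding calls in 8 of 8; right, percent of calls with a score under 50, higher in noncoding calls in 8 of 8.

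No pool-specific noncoding call was carried by nearly all reads of its pool. A call is near-fixed when its share is at least 90% and its alternate reads differ from 50% (two-sided exact binomial test, Benjamini-Hochberg adjusted p under 0.05 over all pool-specific calls of that pool). Over all pool-specific calls of the 8 pools, insertions and deletions included, 14.8% were near-fixed (200 of 1350). Of the 440 noncoding single-base calls 0 were, also at an unadjusted p under 0.05. For this count over calls pooled from 8 libraries, the usual approximation for a count of 0 gives an upper limit of 0.682%. It is not an exact interval, and it takes calls as independent although some are listed in more than 1 pool. The 247 calls with a score under 50 had shares of at most 50%, and for 0 of the other 193 calls the same approximation gives 1.55%. Of the coding single-base calls 48 of 636 were near-fixed (7.55%), and of insertions, deletions and calls with several alleles 152 of 274 (55.5%). The highest noncoding share was 88%.

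That call lay 1 base downstream of RRN6, on chromosome 2 at position 199063, in RRC2. RRN6 encodes a subunit of core factor, which works with RNA polymerase I at the ribosomal RNA gene promoter. The alternate base was on 62 of 70 reads (88%, 78.7 to 94.9%; exact binomial test with Benjamini-Hochberg adjustment, p = 2.83e-10), and the other 8 lists have no call there. It was 27.2 kb from the coding call in RRN10 (YBL025W) that all 50 reads of RRC2 carried. RRN10 encodes a subunit of the upstream activating factor of RNA polymerase I.

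A narrower set of pool-specific calls was used to compare pools without the low-score calls. Its calls have a score of at least 200, stand where the parental list has no call, and share their position with a call in at most 1 other mutant list. All 132 high-score noncoding calls met it, and each was in exactly 1 of the 9 lists. The other lists give no depth where they have no call, so the absence of a call is not a measured share of 0.

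These 132 calls numbered 18, 19, 6, 37, 18, 4, 18 and 12 in RRC1 to RRC8. RRC4 had the most and RRC6, which had the lowest median depth over members, the fewest. Beside them stood 335 coding calls under the same criteria, so 28.3% of the set was noncoding, while 27% of the bases of the nuclear chromosomes in R64 lie outside protein-coding genes. The 28.3% follows the deposited annotation and includes a mitochondrial call. The 27% counts introns as part of genes and covers bases of all kinds, so the shares are not like for like. The change was read as C to T in 65 and as G to A in 64 of the 132 noncoding calls.

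The score limit keeps calls of higher share, and none of these calls was under 31%. Their mean share was 51.5% ± 10.4 (SD over 132 calls), with 88 calls from 40 to 60%, 30 above and 14 below. Of the 132, 20 were above 50% and 8 below it by the adjusted exact binomial test. Among all 440 noncoding calls, without the score limit, 21 were above and 143 below, so the balance of both directions in the 132 rests on that limit. Among all pool-specific calls of any kind 20.7% were above and 25.9% below by this test. Among the 335 coding calls of the same set 36 were above 50%, and 5 were below.

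**Figure D4:**
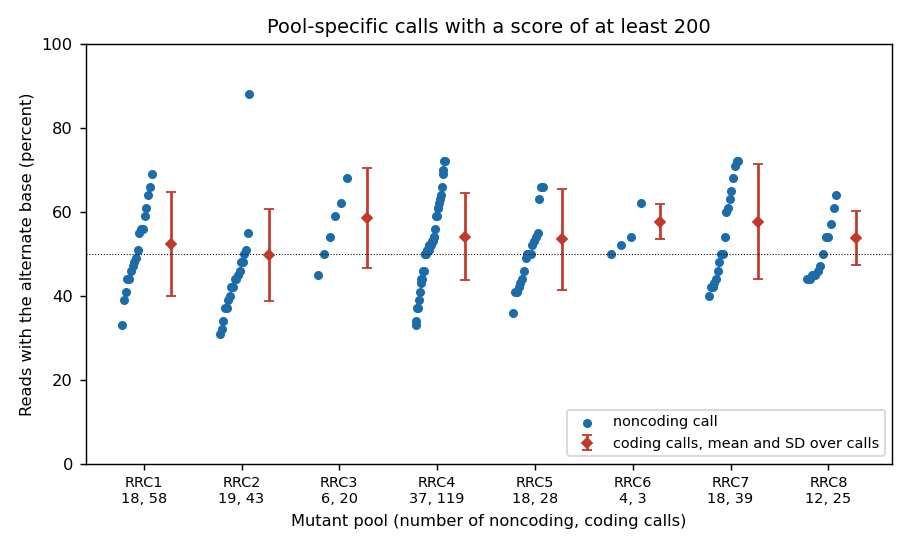
Percent of reads with the alternate base (y axis) for each of the 132 noncoding calls with a score of at least 200 (points), by mutant pool, beside the mean and SD over the coding calls of the same set (diamonds and bars). Numbers under each pool give its noncoding and coding calls. The points range from 31 to 88% around the dotted line at 50%, and the highest is the RRC2 call beside RRN6 at 88%.

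Pool means for the noncoding calls ran from 44.9% in RRC2 to 56.3% in RRC3, and the noncoding mean was below the coding mean in 8 of 8 pools. The mean gap was -2.66 points (two-sided exact sign-flip permutation test, p = 0.00781). Without the chromosomes that carry a near-fixed coding call in the pool it was -1.39 points (p = 0.156 in the same exact test). Counting single-base coding calls only, 9 in the set were near-fixed. Only 6 of the 132 noncoding calls lay on the same chromosome as one of these 9 in the same pool. Of these 6, the RRN6 call was the only one within 100 kb, and the other 5 were 225 to 856 kb away with shares of 36 to 61%.

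The calls of highest and lowest share in each pool lay beside genes of many kinds. In RRC1 the highest were between HNT1, a nucleotide hydrolase gene, and YDL124W (chromosome 4, position 239984), on 39 of 56 reads (69%, 55.9 to 81.2%), and within RUF23, an untranslated RNA gene, on 45 of 68 reads (66%, 53.7 to 77.2%). Its lowest was between the arsenite transporter gene ARR3 and YPR202W (chromosome 16, position 942075), on 31 of 92 reads (33%, 24.2 to 44.3%). After RRN6, the highest in RRC2 lay 20 bases downstream of MRPL4, which encodes a protein of the mitochondrial ribosome, on 48 of 86 reads (55%, 44.7 to 66.5%).

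RRC3 had its highest share 96 bases upstream of IRS4, on chromosome 11 at position 478159, with 44 of 64 reads (68%, 55.9 to 79.8%; adjusted exact binomial p = 0.0121). IRS4 acts in phosphoinositide signalling and was named for increased silencing at the ribosomal DNA. The next lay between MDG1, of pheromone signalling, and APC1, a subunit gene of the anaphase-promoting complex, on 48 of 77 reads (62%, 50.6 to 73.1%). The lowest of RRC3 was 8 bases downstream of KCC4, a septin-associated kinase gene, on 32 of 71 reads (45%, 33.2 to 57.3%). A call of RRC3 with a score of 197, just under the limit, stood higher at 72 of 92 reads (78%, 68.4 to 86.2%), 411 bases from the cell wall protein gene PIR1.

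In RRC4 the pair of highest calls had 72% each. The first, between PEX9, which encodes a receptor for import into peroxisomes, and STB4 (chromosome 13, position 311945), was on 54 of 74 reads (61.4 to 82.7%; adjusted exact binomial p = 0.0006). The second lay between the convergent genes RPB5 and RIB7 (chromosome 2, position 548280), 82 bases downstream of RPB5 and 86 downstream of RIB7, on 35 of 48 reads (58.2 to 84.7%; adjusted exact binomial p = 0.00782). RPB5 encodes a subunit that the nuclear RNA polymerases share, RNA polymerase I included, and RIB7 acts in riboflavin synthesis. The lowest, 81 bases upstream of SAM3, the S-adenosylmethionine permease gene, was on 21 of 63 reads (33%, 21.95 to 46.3%).

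RRC5 had 66% at its highest calls, 7 bases downstream of the lipid droplet gene LDO16 on 51 of 77 reads (54.6 to 76.6%) and between CCW22 and the vacuolar transporter gene YCF1 on 36 of 54 reads (52.5 to 78.9%). Its lowest was between PAU20 and YOL160W on 31 of 86 reads (36%, 25.97 to 47.1%). The 4 calls of RRC6 spanned 50 to 62%. The highest of these lay between PEX14, of peroxisomal import, and NUT1, a Mediator subunit gene, on 34 of 54 reads (62%, 48.7 to 75.7%), followed by one between YER186C and YER187W on 39 of 71 (54%). The lowest, between TDA8 and YAL064W, was on 30 of 60 (50%).

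RRC7 had 4 calls on chromosome 16, all above 60%. They lay 77 bases upstream of YPL150W on 56 of 77 reads (72%, 61.4 to 82.3%; adjusted exact binomial p = 0.000335), between ARR3 and YPR202W (71%), between MMT2 and GRE1 (68%), and in the initiator transfer RNA gene IMT2 (63%). The 3 coding calls of the set on that chromosome had 55 to 62%. The chromosome was picked with its values known, and calls on it can be inherited together. Another call of RRC7 with 72%, between FAR8 and RSF1 on chromosome 13, was on 29 of 40 reads (56.1 to 85.4%). The lowest of RRC7, 50 bases downstream of VPS33, which acts in fusion with the vacuole, was an A:T to T:A call on 31 of 77 reads (40%, 29.2 to 52.1%).

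On chromosome 3 of RRC2 the shares were low together. The calls between YCR001W and the septin gene CDC10, 23 bases upstream of RER1, and between SYP1 and SNR65 were on 33 of 104, 23 of 71 and 25 of 73 reads (31, 32 and 34%). All 3 were below 50% by the adjusted exact binomial test (p = 0.000732, 0.00895 and 0.0199), and no coding call of the set lay on that chromosome in RRC2. They lay between positions 111893 and 176636 and can be inherited together, so they do not count as 3 separate results. The call upstream of RER1 had a score of 200, at the limit of the set. This group was picked with its values known. The highest call of RRC8 lay between SPT16, a subunit gene of the histone chaperone FACT, and the clathrin gene CHC1, on 44 of 68 reads (64%, 52.2 to 75.9%; adjusted exact binomial p = 0.0407). The next was between the Mediator subunit gene SIN4 and YNL234W, on 47 of 76 reads (61%, 49.98 to 72.8%). The lowest calls of RRC8 tied at 44%, between URA1 and OXP1 and between RRG8 and HOB2. The latter stood 4 bases from another call of the same library at 45%.

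A call of RRC2 in the mitochondrial genome, at position 52357 between VAR1 and 21S_RRNA, was on 451 of 1218 reads (37%, 34.3 to 39.8%). The RRC2 call 1 base upstream of IML2 was on 33 of 75 reads (44%). Of the transfer RNA calls, those in SUF3 and tA_AGC_J had 54% of 77 and 57% of 63 reads in RRC8, tD_GUC_L1 had 41% of 55 in RRC1, and tV_AAC_G3 and tN_GUU_O2 had 40% of 70 and 39% of 69 in RRC7. In introns, the call in RPL42A was on 44% of 52 reads of RRC4 and that in RPS19B on 28% of 71 reads of RRC5, both genes of ribosomal proteins. The genes of this paragraph were picked with their values known.

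Of the 125 calls of the set that lay between R64 genes, 50.4% stood between genes of the same orientation, 27.2% between divergent and 12.8% between convergent genes. Over all bases between R64 genes the shares were 43.7, 28.3 and 13.6%. The arrangement was not tested.

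Few genes of ribosomal DNA transcription, silencing and related lists had a pool-specific noncoding call on their flank, as among all genes. The lists cover the upstream activating factor, core factor and TBP, RNA polymerase I subunits, silencing, ribosomal DNA recombination, chromatin, growth signalling and strain markers. Of their 102 genes in R64, 2 had a pool-specific call within 100 bases, RRN6 and RPB5 (1.96%). In the deposited annotation 115 gene names had such a call, which is 1.78% of the number of R64 genes (6477). Some of these names are not in the R64 table, so 1.78% is an upper limit of the share over all genes. At that share, a count of 0 in a list of 8 or 18 genes, as in those of the upstream activating factor and of silencing, says nothing about the list.

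Farther from the gene, 10 calls had a list gene as neighbour, and 7 of them had a score under 50, against 56.1% of all pool-specific noncoding calls. The share of all R64 genes with such a neighbouring call was not computed. The count of 10 therefore says nothing about the lists, and the calls are only described. The 2 with a score of at least 200 were both in RRC8, the call beside SPT16 given above and the transfer RNA call in tA_AGC_J, which lies beside ASF1, a histone chaperone gene. The call beside RRN10 in RRC6 was on 9 of 37 reads (24%, score 18.1), that beside RRN7 in RRC3 on 5 of 19 (26%, score 10.4), and that beside RRN11 in RRC6 on 6 of 22 (27%, score 13.2). Beside TOP1, RRC5 had 5 of 22 reads (22%, score 9.52). Beside GCN4, the activator of amino acid synthesis genes, RRC3 had 28 of 71 reads (39%, score 170). RPC19, a subunit gene shared by RNA polymerases I and III, was the neighbour of calls in RRC3, RRC5 and RRC7 with 10, 13 and 23 reads. These calls had scores of 5.46, 5.46 and 10.4 and lay 1897, 249 and 318 bases from RPC19, that of RRC3 in the DBP2 intron.

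The ribosomal DNA itself held 4 members, all in the spacer between the external transcribed spacer ETS1-1 and the 5S gene RDN5-1 on chromosome 12. RRC3 had 4 of 15 reads at position 459605, which is 71 bases upstream of RDN5-1 (26%, score 4.13). RRC6 had 4 of 14, 3 of 11 and 4 of 14 reads at positions 459403, 459465 and 459501 (28, 27 and 28%, scores 3.01, 3.54 and 8.64). These calls had fewer reads than the median member of either library. They are described with their values known.

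The densest clusters of members lay in few windows. Of 375 windows of 1 kb with a member, 318 held 1 and 5 held at least 5, and those 5 windows held 43 of the 483 members. Chromosome 1 from 12001 to 13000, between YAL064W-B and TDA8, held 16 members, 9 of them parental, with a median share of 28% and a range of 17 to 47%. Its call at position 12529 was absent from the parental list and listed in 6 mutant pools, RRC2 and RRC4 to RRC8, on 41, 38, 30, 28, 32 and 35% of reads.

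The window on chromosome 10 from 525001 to 526000, between ANB1, a translation factor gene, and CYC1, the cytochrome c gene, held 11 members with a median of 14 reads and a median score of 11.3. The windows on chromosome 13 from 26001, beside GTR1, and from 822001, between the phosphatase gene FCP1 and PRM15, held 6 and 5 members with median scores of 12.3 and 10.5. The window on chromosome 1 from 189001, between MST28 and YAT1, held 5 with a median share of 20.5% at a median depth of 102 reads.

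Of the 48 members found in all 9 lists, 22 were at 100% in every library. In 38 the share was at least 90% in each library, and in 7 it was under 60% in each. The range over the 9 libraries was at most 10 points for 41 of them, and 23 tied at a range of 0. Of those tied, the calls with the highest minimum depth over the libraries lay in the mitochondrial genome at position 82507, on 99% of 1069 to 2382 reads, and on chromosome 13 between CDC65 and the sphingolipid hydroxylase gene SCS7, on 100% of 66 to 76 reads.

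The widest range belonged to a call 88 bases upstream of OXR1, on chromosome 16 at position 174955. OXR1 is named for oxidation resistance. The alternate base was on 34 of 61 reads in the parental library (55%, 42.5 to 68.5%), which mixes both starting strains. It was on 48, 49, 53, 44, 57, 54 and 39% of reads in RRC1 to RRC5, RRC7 and RRC8. In RRC6 it was on 42 of 44 reads (95%, 84.5 to 99.4%). RRC6 stood above all other libraries, whose intervals ended at 68.9% or below.

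Another parental call of intermediate share was missing from RRC6. It lay 46 bases upstream of MRX15, on chromosome 14 at position 699644, beside ZRG17, a zinc transport gene. The share was 44% of 68 reads in the parental library, 29% of 65 in RRC1 and 44 to 55% in the other 6 mutant pools with a call. The list of RRC6 had no call at the position and so gives no depth there. Such absence was not particular to this call or to RRC6. RRC6 lacked several other parental calls, of lower score, and shared the fewest noncoding calls with the parental list (53). The parental call at position 12690 of chromosome 1 (41%, score 225) was absent from RRC2 to RRC5 and was on 34% of 44 reads in RRC6.

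**Figure D5:**
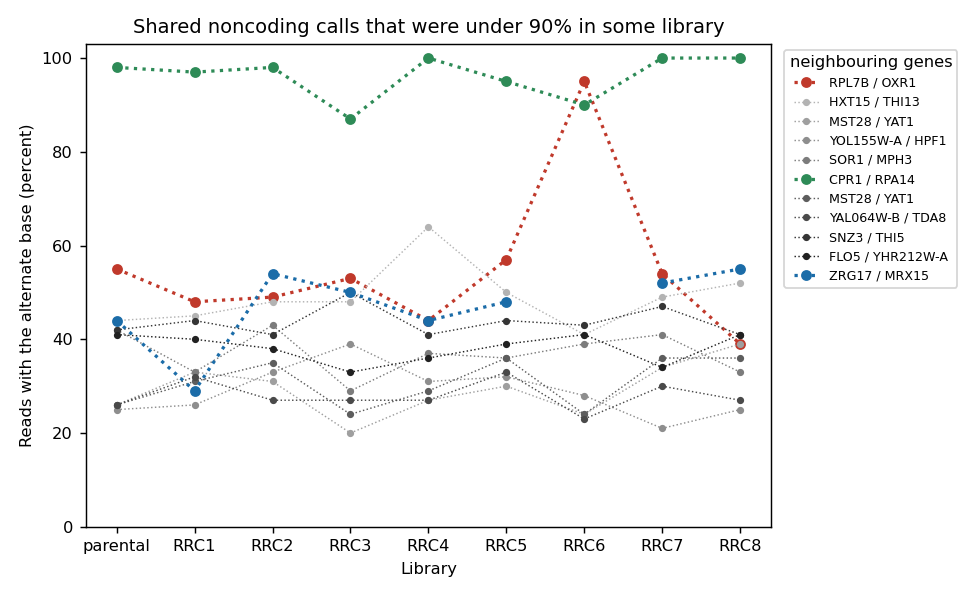
Percent of reads with the alternate base (y axis) in the parental library and the 8 mutant pools (x axis) for the 10 noncoding calls in all 9 lists that were under 90% in some library, and for the call beside ZRG17 and MRX15 that RRC6 lacks. Dotted lines join the values of 1 call. The call beside OXR1 is at 95% in RRC6 and at 39 to 57% elsewhere.

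The next widest ranges were smaller. A call between the hexose transporter gene HXT15 and THI13, of thiamine synthesis, had 41 to 64%, with the highest share in RRC4. A call between MST28 and YAT1 on chromosome 1 had 20 to 39%, and a call between YOL155W-A and the mannoprotein gene HPF1 had 21 to 39%. A call between SOR1 and MPH3 had 29 to 43%. A call between CPR1 and RPA14, a subunit gene of RNA polymerase I, had 95 to 100% in 7 libraries. It had 87% in RRC3 (34 of 39 reads) and 90% in RRC6 (37 of 41 reads), and these differences were not tested.

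The 8 parental calls absent from all 8 mutant lists had scores of at most 27. Of the 3 of highest score, 1 lay between OLE1, the fatty acid desaturase gene, and ERV14 on 7 of 23 reads (30%). Another lay between ANB1 and CYC1 on 6 of 21 (28%). The last was on 10 of 54 (18%), 99 bases from YNCL0038W and 827 bases from MET17, of methionine synthesis.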

How the data were processed

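The deposited files were lists of called variants, 1 full list per library and 1 shortened list per mutant pool, and the full lists were used. Per the file headers, the columns hold a score under the name MapQ, a count of reads at the position and, as a percent, how many of them show the alternate allele. The submitters' processing notes list SAMtools 0.1.19, Bowtie 1.0.0 and MACS2 without a role. Caller, filters, build and mutagen were not given in the sources used here.

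Members and gene lists were chosen with earlier results of these data known. Alternate reads were taken as the smallest number compatible with the deposited percent, which is rounded down, as all 3148 calls with up to 60 reads showed; above 100 reads this is a lower bound. Each binomial test runs over the reads of 1 library. Genes were named beside near-fixed calls (0 found), beside list genes, and for the 2 highest and 1 lowest high-score calls per pool, the 4 widest and 2 narrowest calls in 9 lists (ties by lowest depth), the 5 densest windows and 3 parental calls (ties by score). Others, among them PIR1, GCN4, ASF1, TOP1, RRN7, RRN10, RRN11, RPC19, RPA14, SOR1, RER1, SYP1 and MRX15, were chosen after their values were seen. Calculations used Python 3.11.15, NumPy 2.4.6 and SciPy 1.17.1, and tests were checked on simulated data.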

Additional observations from a re-analysis of the deposited data

Results flagged for a closer look

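Among 19 sets of 8 mutant pool values that were checked, 2 had a pool far from the others by Dixon's criterion. Shared calls entered the check only where their shares ranged widely over the pools. The remaining sets hold noncoding and coding values together with their differences. No chance rate can be set beside the 2 for sets picked in this way. The first is the call upstream of OXR1, at 95% in RRC6. The second is the share of coding pool-specific calls with a score under 50, at 55% in RRC6.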

How the results depend on the processing

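The G:C to A:T difference between noncoding and coding calls depended on the call filter (p from the two-sided exact sign-flip permutation test). It was -3.60 points with no minimum of reads (exact p = 0.398) and -10.4 with at least 20 (exact p = 0.0547). It turned to 2.31 at a score of at least 200 (exact p = 0.156) and to 0.261 in the narrower set of the report, which also drops positions called in the parental or in several other lists, added after seeing the data (exact p = 0.938). The gap in alternate share was -1.39 in that set without chromosomes with a near-fixed coding call (exact p = 0.156, also added). At a limit of 80%, 1 noncoding call was near-fixed. The cause was not tested. Without single pools, the G:C to A:T difference ranged from -11.3 to -6.70 points against coding calls and from 26.5 to 33.4 against calls shared with the parental list. The difference in alternate share ranged from -12.6 to -11.4 points and that in low-score share from 22.04 to 27.5, and the exact p of all 4 stayed at 0.0469 or below. The other alternatives left direction and side of the threshold as they were, the shortened lists, 95% and no test included. No paired analysis was possible because the groups that share replicate numbers have no files here; the 4 differences above are already taken within each pool. Median depth over members, low-score calls included, was lowest in RRC6 and RRC3.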
